A study of Mus musculus with 4 samples.

Results

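The unfolded protein response of the liver and the chaperones of the endoplasmic reticulum (ER) are described here through 31 genes. They were chosen by name for their known roles, with earlier results of these data known. Of these, 29 had a probe whose RefSeq accession matched the gene's symbol, out of 31077 genes or accessions tested in all. Dnajb11, a co-chaperone of the ER, and Pdia3, a disulfide isomerase that works with calnexin and calreticulin, matched no probe and were not analysed here. By role, the measured genes comprised 14 of 16 chaperones and folding enzymes, 5 of 5 genes of ER-associated degradation, 3 of 3 regulators of the ATF6 and IRE1-XBP1 branches, and 7 of 7 genes of the PERK-ATF4 arm. All 29 passed the filter on dim probes and were well above background in both channels on all 4 arrays.

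Secreted and membrane proteins fold in the ER, where chaperones such as BiP (the product of Hspa5) hold unfolded chains and disulfide isomerases form their disulfide bonds. When unfolded chains accumulate, the sensors ATF6, IRE1 (Ern1) and PERK (Eif2ak3) are activated: cleaved ATF6 and spliced XBP1 drive genes of chaperones and degradation, while PERK phosphorylates eIF2, slows translation and favours synthesis of ATF4, which drives genes of amino acid supply, Ddit3 and Trib3. Hepatocytes secrete most plasma proteins and depend on this machinery. Activation of the sensors is by cleavage, splicing and phosphorylation, which these arrays do not measure.

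RNA from liver was compared on 4 Agilent 2-colour arrays, each with 1 treated and 1 untreated mouse. All mice were males of the C57Bl/6 strain, aged 3 months, and all carried a mutant Wrn protein, so the controls shared the mutation and there was no wild-type group. Since weaning, the 4 treated mice had drunk water with 0.4% vitamin C. Wild-type mice make this antioxidant and enzyme cofactor themselves in the liver, and its synthesis in these mutants was not examined here. The 4 controls were Wrn mutants with no treatment. The labels do not name the allele, the cells in which it acts or the housing of each pair. The treated liver was labelled with Cy3 and the untreated liver with Cy5 on all 4 arrays, with 0 dye swaps, so a dye effect of a probe and an effect of the treatment cannot be told apart. The arrays shared 1 slide and 1 scan date.

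Each value is the log2 of the treated over the untreated signal, with means ± SD taken over the 4 arrays unless stated. Their direction follows the dye labels and is opposite to the sign of the deposited log2 table, whose columns correlated with these ratios at r = -0.950 to -0.980 across probes. Median spot intensities were 380 to 530 in Cy3 and 813 to 962 in Cy5, against 62 to 80 on negative controls. The array of replicate 2 stood apart. Across 41174 probes its ratios correlated with those of the other arrays at r = -0.131 to 0.057, whereas replicates 1, 3 and 4 correlated with each other at 0.563 to 0.77. The 29 members showed the same split, with r = -0.255 to 0.278 for replicate 2 and 0.4 to 0.693 among the others (across genes, which are not independent replicates). Results are therefore given with and without this array.

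The promoters of these genes are known for short elements through which the branches act, and 26 of the 31 genes had a RefSeq window of 250 bases before to 50 after the start (assembly GRCm38.p6). The ER stress response element (ERSE), CCAAT and CCACG separated by 9 bases, is bound by NF-Y together with ATF6 or XBP1. On either strand it was found in 8 of 26 member windows (30.8%), against 37 of 27025 genes with a window (0.137%). These 8 genes are shown because their ratios are compared with those of the other members further on; each run is the element with 15 bases on either side, 5′ to 3′ on the strand that reads CCAAT first, and capitals mark CCAAT and CCACG.
Hspa5, chr2:34772010-34772058, plus strand: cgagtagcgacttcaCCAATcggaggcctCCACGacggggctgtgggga
Hsp90b1, chr10:86705623-86705671, minus strand: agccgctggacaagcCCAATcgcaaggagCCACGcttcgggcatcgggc
Hsp90b1, chr10:86705518-86705566, plus strand: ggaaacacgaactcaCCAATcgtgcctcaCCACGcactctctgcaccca
Dnajc3, chr14:118937812-118937860, plus strand: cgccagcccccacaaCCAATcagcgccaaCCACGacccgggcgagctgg
Creld2, chr15:88819505-88819553, minus strand: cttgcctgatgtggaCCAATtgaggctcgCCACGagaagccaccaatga
Calr, chr8:84847060-84847108, plus strand: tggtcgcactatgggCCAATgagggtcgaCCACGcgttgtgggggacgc
Canx, chr11:50325785-50325833, minus strand: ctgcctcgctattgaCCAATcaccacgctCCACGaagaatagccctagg
Pdia6, chr12:17266476-17266524, plus strand: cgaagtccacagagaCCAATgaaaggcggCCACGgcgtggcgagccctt
Syvn1, chr19:6046517-6046565, plus strand: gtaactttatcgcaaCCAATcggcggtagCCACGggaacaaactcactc

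The element known for ATF4 paired with a C/EBP factor, TGATGNAA on either strand, was found in 4 of 26 member windows (15.4%), those of Asns, Chac1, Herpud1 and Trib3, against 4.51% of all genes with a window. The match of Herpud1 also lies before the start, and that of Trib3 lies after it. Shown are the runs of Asns and Chac1, the PERK-ATF4 arm genes with a match before the start, because their ratios differ in spread. Capitals mark the fixed letters.
Asns, chr6:7693210-7693247, minus strand: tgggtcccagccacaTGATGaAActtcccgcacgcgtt
Chac1, chr2:119351034-119351071, minus strand: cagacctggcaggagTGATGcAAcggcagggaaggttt

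The ERSE-II element, ATTGG and CCACG with 1 base between them (ATTGG is CCAAT read on the other strand), was found in the windows of Herpud1 and Dnajb11 (2 of 26, 7.69%, against 0.0444% of genes). The XBP1 element TGACGTGG was in 0 of 26 windows, against 0.714% of genes. A match is a description of letters in these windows, and a missing match says only that these letters are not there.

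Across all members, the comparison of treated with untreated livers gave no call: 0 of 29 members passed limma's test, as did 0 of 31077 genes (0%), and the smallest adjusted p of any gene was 0.144. Genes of differing unadjusted p shared that value, so it does not rank them. At an unadjusted limma p under 0.05 there were 9 of 29 members (31%), beside 27.7% of all genes. Higher in treated livers were 4, Trib3, Dnajb9, Derl1 and Ddit3, or 13.8% of members beside 11.1% of all genes. Lower were 5, Chac1, Creld2, Dnajc3, Hsp90b1 and Pdia6, or 17.2% beside 16.5%. Members thus reached this level about as often as other genes did. The median of the members' means was -0.025, near the -0.015 of all genes tested, and 14 means were above 0 and 15 below. The 4 higher genes were above 0 on all 4 arrays, as were 14.9% of all genes, and 3 members, Hsp90b1, Canx and Chac1, were below 0 on all 4, as were 16.1% of all genes. In bulk tissue, fewer cells of a type and less RNA per cell cannot be told apart.

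**Figure D1:**
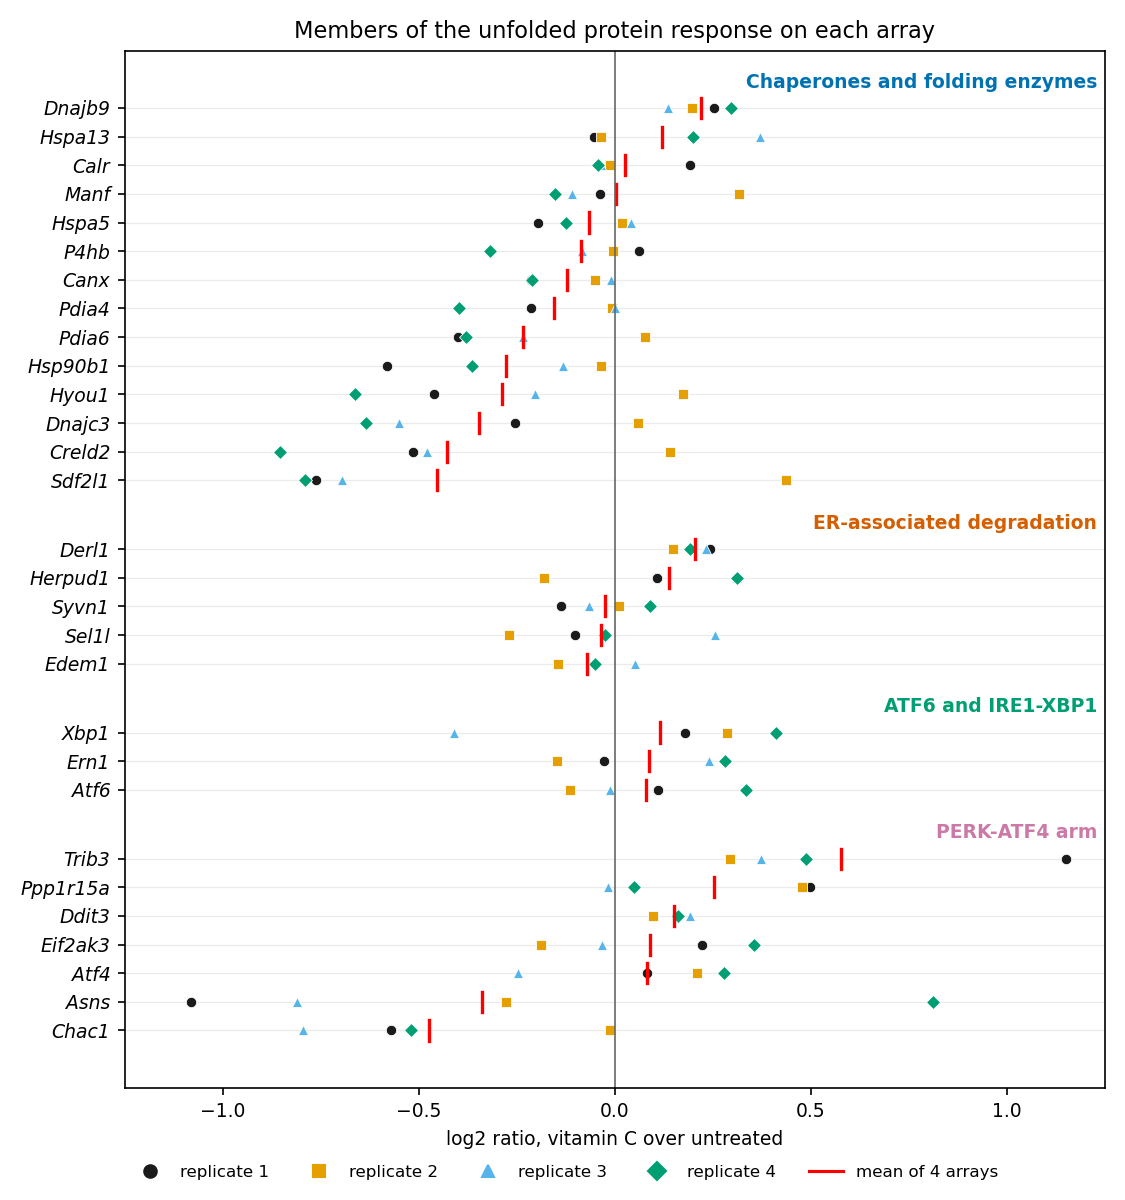
Log2 ratio of vitamin C over untreated for each of the 29 measured members (x axis), grouped by role and ordered by mean; symbols are the 4 arrays and red bars are the means. Replicate 2 lies to the right of the other arrays for Sdf2l1, Creld2, Dnajc3, Hyou1 and Pdia6, and the PERK-ATF4 arm holds both the highest mean (Trib3, 0.58) and the lowest (Chac1, -0.47).

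Among chaperones and folding enzymes, 10 of 14 means lay below 0, with a median of -0.14 beside -0.015 for all genes, and none of the 14 passed limma's test. The median on replicates 1 to 4 was -0.21, 0.039, -0.097 and -0.34. On replicates 1, 3 and 4, 11, 10 and 12 of the 14 genes were below 0 (78.6%, 71.4% and 85.7%), beside 54.1%, 51.9% and 51.3% of all genes. On replicate 2 there were 6 (42.9%), beside 52.0%. For 7 of the 14 (50%) replicate 2 gave the highest ratio of the 4 arrays, beside 33.1% of all genes. For 0 of the 14 it gave the lowest, beside 37.8% of all genes.

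Hspa5 encodes BiP, the Hsp70 chaperone of the ER and the usual gauge of the response. Its log2 ratios were -0.20, 0.019, 0.042 and -0.12 on replicates 1 to 4. Both signs occurred, and the mean of -0.065 ± 0.11 had a 95% interval of -0.21 to 0.082 (limma adjusted p = 0.486). Hsp90b1, the Hsp90 chaperone GRP94 of the ER, had ratios of -0.58, -0.034, -0.13 and -0.365. All 4 were below 0, the one of replicate 2 least so, and the mean was -0.28 ± 0.245 (limma adjusted p = 0.160). Hyou1, an Hsp110-type exchange factor for BiP, had a mean of -0.29 ± 0.36, with 0.175 on replicate 2 and -0.66 to -0.20 on the others. Hspa13, an Hsp70-like protein of microsomes, had 0.12 ± 0.20.

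The J-domain proteins, which hand substrates to BiP, differed in sign. Dnajb9 (ERdj4) had ratios of 0.25, 0.20, 0.14 and 0.30 on replicates 1 to 4, all above 0 and close to each other. Its mean was 0.22 ± 0.069, with a 95% interval of 0.099 to 0.34 and a limma adjusted p of 0.144. Dnajc3 (p58IPK), which also inhibits PERK, had -0.255, 0.059, -0.55 and -0.64, below 0 on every array but replicate 2. Its mean was -0.35 ± 0.315 (limma adjusted p = 0.159).

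Sdf2l1, a stress-induced partner of ER J-domain proteins, had the lowest mean of the group. Its ratios were -0.76, 0.44, -0.70 and -0.79, so that 3 arrays lay close together and replicate 2 lay on the other side of 0. The mean of -0.45 ± 0.59 therefore had a wide 95% interval, -0.996 to 0.09 (limma adjusted p = 0.228). Creld2, an ER-resident protein with isomerase-like activity that is induced by ER stress, showed the same arrangement, with -0.51, 0.14, -0.48 and -0.855 and a mean of -0.43 ± 0.42 (limma adjusted p = 0.165). Manf, a secreted ER stress protein that binds BiP, had 0.32 on replicate 2 and -0.15 to -0.038 on the others, for a mean of 0.004 ± 0.21.

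Pdia6, a disulfide isomerase, had ratios of -0.40, 0.078, -0.23 and -0.38, again with only replicate 2 above 0. Its mean was -0.23 ± 0.22 (limma adjusted p = 0.172). The other isomerases measured, Pdia4 at -0.155 ± 0.19 and P4hb at -0.086 ± 0.17, had smaller means. Of the lectin chaperones that hold glycoproteins during folding, Canx was below 0 on all 4 arrays at -0.12 ± 0.11, and Calr had 0.025 ± 0.11. Calr was at 0.19 on replicate 1 and between -0.043 and -0.013 on the other arrays.

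Genes of ER-associated degradation had means from -0.071 to 0.20, with a median of -0.025, and 2 of 5 means were above 0. Here the sides of the arrays were otherwise: medians on replicates 1 to 4 were -0.10, -0.14, 0.23 and 0.09, and replicate 2 was the lowest array for 3 of the 5 genes. Derl1, a channel component through which misfolded proteins leave the ER, had ratios of 0.24, 0.15, 0.23 and 0.19. All 4 were above 0, and its SD of 0.043 was small against the mean of 0.20 (95% interval 0.093 to 0.32, limma adjusted p = 0.144). This is 1 of 4 probes that differ in sign, and the mean over all of them was 0.07. Edem1, a lectin that delivers glycoproteins for degradation, had the lowest mean of the group, with -0.14, -0.14, 0.052 and -0.05 and a mean of -0.071 ± 0.094. Herpud1, which organises the HRD1 ligase complex, was below 0 on replicate 2 only and had 0.14 ± 0.23. Sel1l and Syvn1, the adaptor and the ubiquitin ligase (HRD1) of that complex, were at -0.035 ± 0.22 and -0.025 ± 0.098, with both signs among their arrays.

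The regulators of the ATF6 and IRE1 branches had means just above 0. Atf6, the sensor that is cleaved in the Golgi, had ratios of 0.11, -0.115, -0.011 and 0.335 and a mean of 0.08 ± 0.19 (95% interval -0.12 to 0.28). Ern1, which encodes the sensor IRE1, had -0.027, -0.15, 0.24 and 0.28, with a mean of 0.087 ± 0.21. For each sensor, 2 arrays were above 0 and 2 below. Xbp1, whose mRNA IRE1 splices, had 0.18, 0.29, -0.41 and 0.41, so replicate 3 alone was below 0, and a mean of 0.12 ± 0.36 (limma adjusted p = 0.596). The probe's ratio does not separate spliced from unspliced Xbp1.

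The PERK-ATF4 arm held both the highest and the lowest mean of all members, and 5 of its 7 means were above 0. Its median was 0.089, and 0.16, 0.097, -0.032 and 0.28 on replicates 1 to 4. Eif2ak3, which encodes the sensor PERK, had ratios of 0.22, -0.19, -0.032 and 0.355, 2 on each side of 0, and a mean of 0.089 ± 0.245. Atf4, the transcription factor of the arm, whose output is mainly set by translation of its mRNA, had 0.081, 0.21, -0.246 and 0.28, with a mean of 0.081 ± 0.23 (limma adjusted p = 0.589).

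Ddit3 encodes CHOP, a C/EBP family factor downstream of ATF4 that is linked to stress-induced cell death. It had ratios of 0.16, 0.097, 0.19 and 0.16, all above 0, with a mean of 0.15 ± 0.04 and a limma adjusted p of 0.146. Trib3, a pseudokinase induced by ATF4 and CHOP, had 1.15, 0.29, 0.37 and 0.49 on replicates 1 to 4. All 4 were above 0, that of replicate 1 far above the rest. The mean of 0.58 ± 0.39 is a 1.49-fold difference (95% interval 0.21 to 0.94 in log2, limma adjusted p = 0.144), read from 1 of 2 probes that differ in sign, as given further on. Ppp1r15a (GADD34), which brings phosphatase to eIF2 and ends the block on translation, had 0.25 ± 0.27, with 0.50 and 0.48 on replicates 1 and 2 and near 0 on the others.

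Chac1, which breaks down glutathione and is induced through ATF4 and CHOP, had ratios of -0.57, -0.011, -0.80 and -0.52. All were below 0, replicate 2 barely so. Its mean of -0.47 ± 0.33 is 0.720 times the untreated level, with a limma adjusted p of 0.144. Asns, asparagine synthetase, which was singled out after its values were seen, had the widest spread of any member. Its ratios were -1.08, -0.28, -0.81 and 0.81, and its mean was -0.34 ± 0.84 (95% interval -1.10 to 0.42). In channel levels, the treated liver of replicate 4 had a log2 intensity of 13.0 for Asns, against 10.2 to 11.0 in the other treated livers and 11.1 to 12.2 in the untreated livers. Trib3, Ddit3 and Chac1 are all known targets of this arm, and 2 had means above 0 and 1 below, on probes read from the same 4 arrays.

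**Figure D2:**
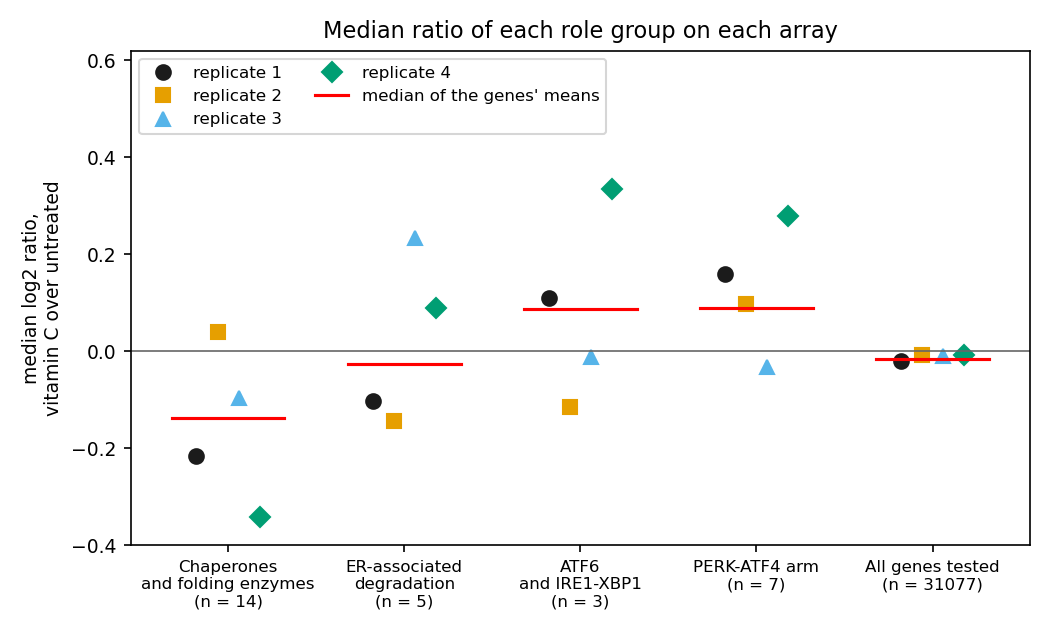
Median log2 ratio of vitamin C over untreated of each role group on each array (symbols) and the median of the genes' means (red bars), beside all 31077 genes tested. The chaperone median is -0.14 and lies above 0 on replicate 2 alone, while medians of the ATF6 and IRE1 group (0.087) and of the PERK-ATF4 arm (0.089) are above 0 with arrays on both sides.

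Spread over the arrays was larger than the distance from 0 for all 4 role groups. The SD of the 4 array medians was 0.16 for chaperones, 0.175 for degradation genes, 0.19 for the ATF6 and IRE1 regulators and 0.13 for the PERK-ATF4 arm, against medians of means of -0.14, -0.025, 0.087 and 0.089. Without replicate 2 those medians were -0.175, 0.043, 0.145 and 0.17, so the degradation genes changed sign. Without replicate 4 they were -0.083, -0.039, 0.018 and 0.015. Without replicate 1 the degradation genes were at 0.012. No test of a difference between role groups was made.

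Levels in the separate channels gave a stricter view of overlap. Dnajb9, Derl1 and Ddit3 had all 4 treated livers above all 4 untreated livers, as did 4.51% of all genes, and Hsp90b1 had all 4 treated below all 4 untreated, as did 2.54%. For Derl1 the log2 intensity was 13.83 to 13.97 in treated livers and 13.67 to 13.77 in untreated livers. Ddit3 was at 10.63 to 10.73 against 10.48 to 10.56, a narrow gap. For Hsp90b1 the treated livers lay at 16.58 to 16.74 and the untreated livers at 16.77 to 17.16, a narrow gap too. The other 25 members, Trib3 and Chac1 among them, overlapped between groups.

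Leaving out replicate 2 changed the calls of the members. With replicates 1, 3 and 4 alone, 12 of 29 members passed limma's test at an adjusted p under 0.05. The 5 higher members (17.2%) stood beside 10.2% of all genes, and the 7 lower (24.1%) beside 18.3%. These shares were not matched for intensity, and the median log2 intensity was 12.97 for members against 9.61 for all genes. Lower were Sdf2l1 (-0.75 ± 0.048, adjusted p = 0.00976), Chac1 (-0.63 ± 0.15), Creld2 (-0.62 ± 0.21), Dnajc3 (-0.48 ± 0.20), Hyou1 (-0.44 ± 0.23), Hsp90b1 (-0.36 ± 0.22) and Pdia6 (-0.34 ± 0.092). All but Chac1 are chaperones or folding enzymes, so 6 of 14 of that group were called lower and 1, Dnajb9, higher (0.23 ± 0.082). Also higher were the degradation genes Herpud1 (0.24 ± 0.12) and Derl1 (0.22 ± 0.028) and, of the PERK-ATF4 arm, Ddit3 (0.17 ± 0.02) and Trib3 (0.67 ± 0.42). The ATF6 and IRE1 regulators gave 0 calls of 3, and Hspa5 was at -0.093 ± 0.12 (adjusted p = 0.303). Since replicate 2 was picked out after its ratios were seen to differ from the others, and since leaving it out calls 28.6% of all genes, these calls describe 3 arrays and do not replace the values over 4.

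Probes of the same gene did not always give the same sign. Of 13 members with several probes, 7 had probe means on both sides of 0: Calr, Derl1, Dnajb9, Edem1, Hspa13, Sel1l and Trib3. The dimmer probe of Trib3 had -0.21, 0.11, -0.57 and -0.55, a mean of -0.30 ± 0.32 against 0.58 ± 0.39 for the brighter one. Here the sign of the gene depends on the probe. A further probe of Calr had -0.25, 0.048, -0.76 and -1.13 (mean -0.52 ± 0.52), and 1 of the 2 other probes of Dnajb9 had -0.24, 0.15, -0.52 and -0.42 (mean -0.26 ± 0.29). A further Edem1 probe had -0.42, 0.15, -0.67 and -0.62. All 4 of these probes were above 0 on replicate 2 and below 0 on the other arrays, which is the arrangement of Sdf2l1, Creld2 and Dnajc3. The remaining Dnajb9 probe, at 0.22 ± 0.092, gave the sign of the brightest one, while the 3 other Derl1 probes had -0.10 ± 0.073, 0.013 ± 0.038 and 0.17 ± 0.115. The lowest of these was below 0 on all 4 arrays, at -0.10, -0.02, -0.094 and -0.198.

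Of the 7 members called lower without replicate 2, Hsp90b1, Dnajc3 and Pdia6 had several probes, whose means shared a sign but differed in size. A further probe of Hsp90b1 was also below 0 on all arrays, at -0.82, -0.40, -0.95 and -1.24, with a mean of -0.86 ± 0.35, farther from 0 than that of the brightest probe. Of the 3 further Dnajc3 probes, 2 had -0.42 ± 0.19 and -0.56 ± 0.34, each below 0 on all 4 arrays, and the last had -0.028 ± 0.23. Both further Pdia6 probes had means below 0, -0.26 ± 0.175 and -0.47 ± 0.31. Sdf2l1, Creld2, Hyou1 and Chac1 had a single probe each. Atf6, Canx and Syvn1, which were not called, also had probe means of 1 sign. Where probes sit along their transcripts is not given in the sources used here.

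**Figure D3:**
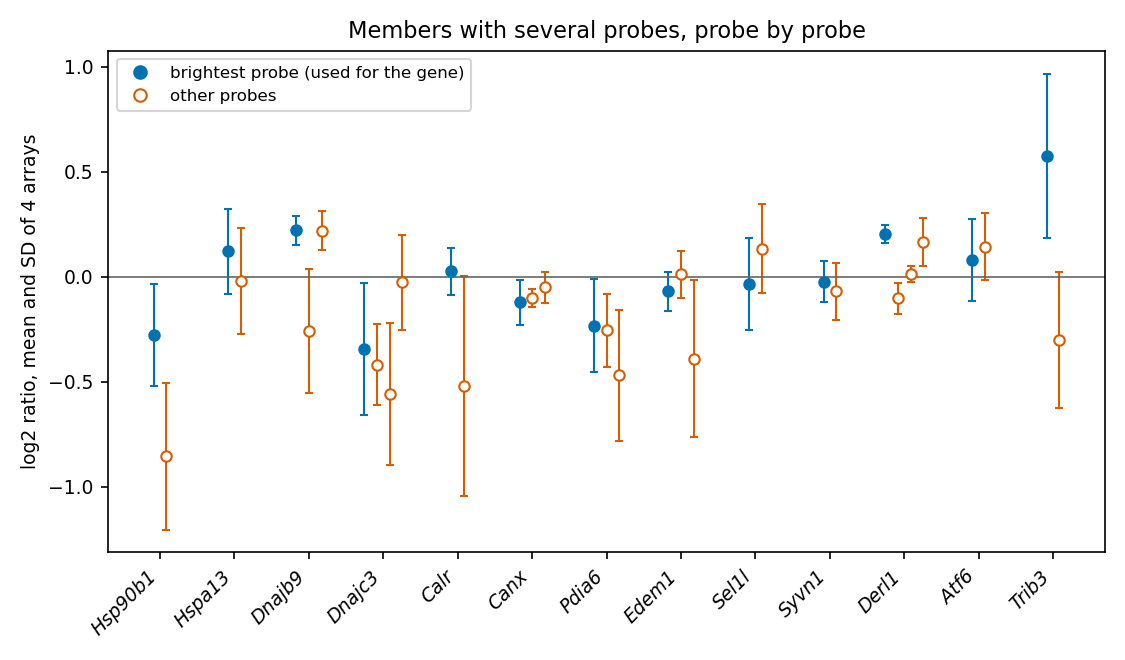
Mean log2 ratio over 4 arrays for each probe of the 13 members with several probes; error bars are SDs, filled points are the brightest probe and open points the other probes. Trib3, Calr and 1 probe of Dnajb9 differ in sign from the probe used, while all probes of Hsp90b1, Dnajc3 and Pdia6 have means below 0.

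The ratios depended on how intensity was normalized. Members were brighter than the genes tested in all, with a median log2 intensity of 12.97 against 9.61. After loess, the share of genes at an unadjusted limma p under 0.05 differed with intensity. It was 22.25% below 10, 33.9% from 10 to 12, 38.1% from 12 to 14 and 27.4% from 14 to 16. After loess, genes with a mean log2 intensity of 17 or more had a median of -0.30 (153 genes, no member among them), and those from 16 to 17 had -0.05 (292 genes). Herpud1, Hsp90b1, Hspa5, P4hb and Pdia6 lie in the second of these ranges. Hsp90b1 and Pdia6, at -0.28 and -0.23, lay below the median of their range, and Herpud1 at 0.14 above it. Taking a running median over intensity off each array moved Hsp90b1 to -0.14 (limma adjusted p = 0.334) and left Pdia6 at -0.23. Where arrays were only centred on their medians, without loess, 10 members passed the adjusted threshold. None of them was higher, beside 14% of all genes, and 10 were lower (34.5%), beside 17%, shares that were not matched for intensity. At an unadjusted p the split of members was then 1 higher (3.45%, beside 19.8% of all genes) and 14 lower (48.3%, beside 27.3%), in place of 4 and 5. The medians of the ATF6 and IRE1 group and of the PERK-ATF4 arm turned to -0.042 and -0.05, and the chaperone median went to -0.28. Under the 15 alternatives tried, the chaperone median stayed below 0, from -0.28 to -0.083. That of the degradation genes took either sign, from -0.18 to 0.069.

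**Figure D4:**
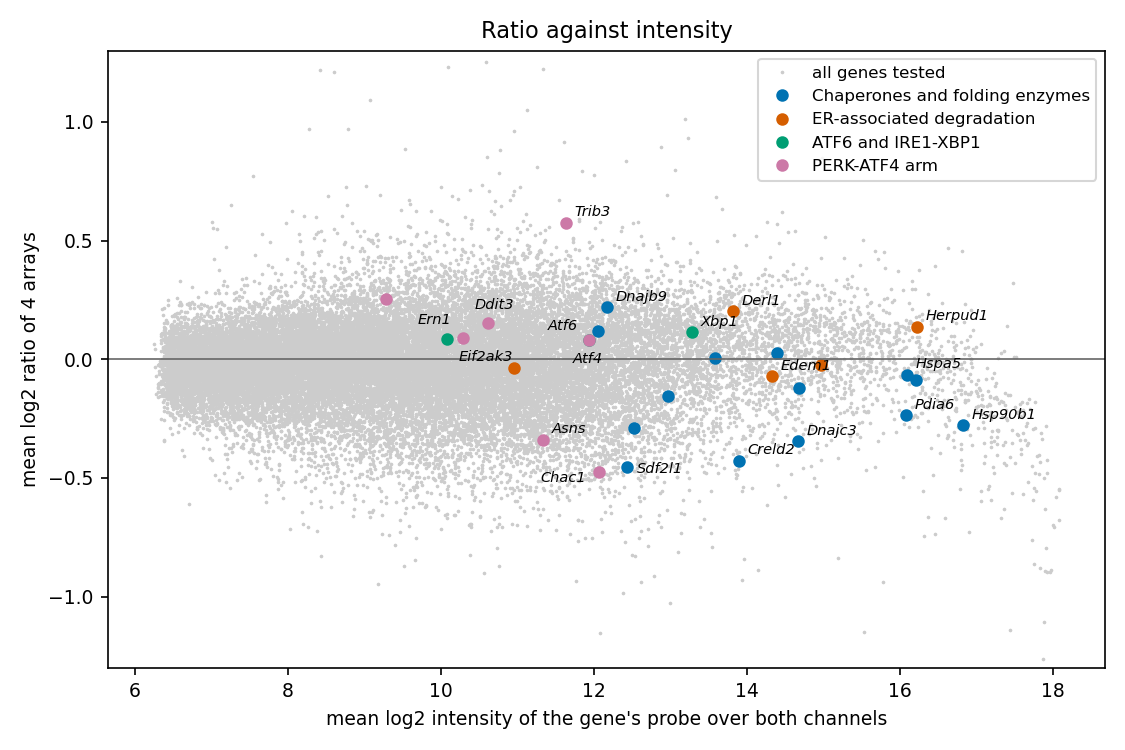
Mean log2 ratio over 4 arrays (y axis) against mean log2 intensity over both channels (x axis) for all 31077 genes tested (grey, 15 lie outside the axis) and the 29 members (coloured by role). Bright genes bend below 0 on the right, where Hsp90b1, at an intensity of 16.8, is the brightest member probe.

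**Figure D5:**
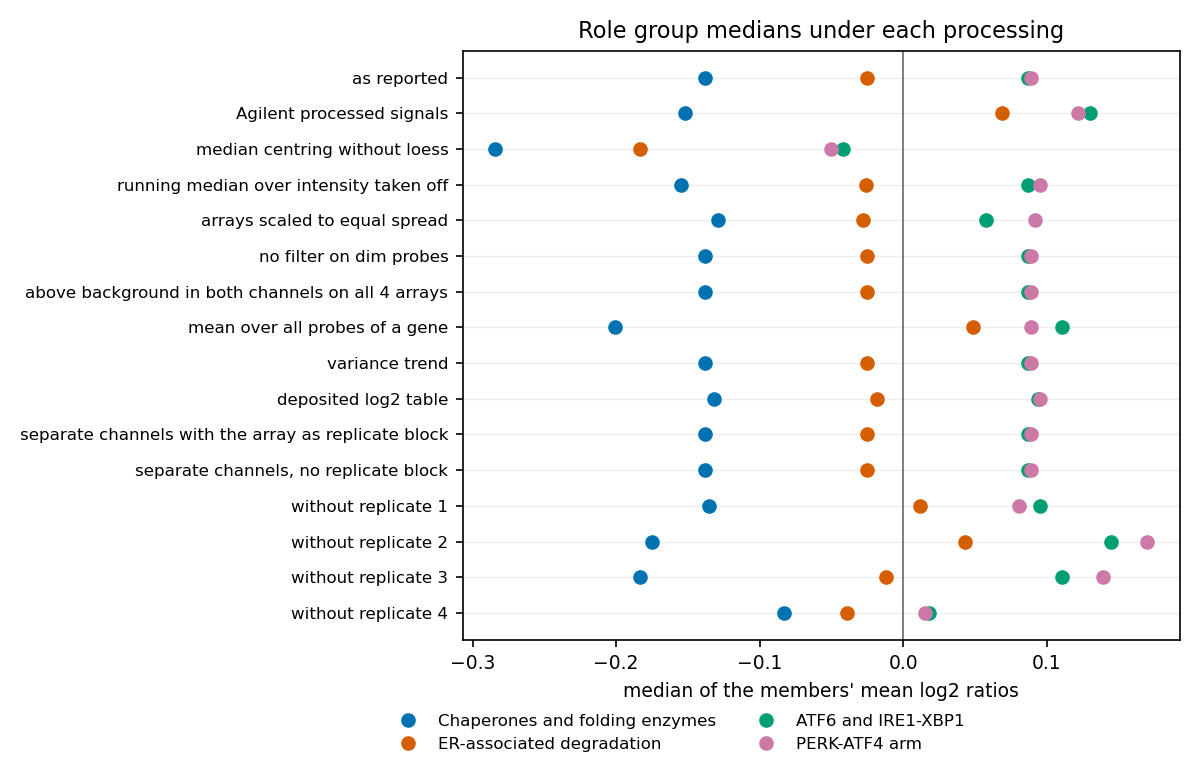
Median of the members' mean log2 ratios (x axis) in each role group, as reported and under each of 15 alternatives (y axis). Chaperones stay below 0 throughout, the ATF6 and IRE1 group and the PERK-ATF4 arm cross to the other side of 0 only where loess is left out, and the degradation genes lie on either side.

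Ratios of members with and without an ERSE in their window are given as a description, without a test. The 8 genes whose elements are shown above had a median of -0.18, with 7 means below 0 and only Calr above. Their medians on replicates 1 to 4 were -0.235, 0.014, -0.098 and -0.29, and 7, 3, 7 and 7 of the 8 were below 0. The 16 measured members with a window but no ERSE had a median of 0.084, and 0.072, -0.006, -0.009 and 0.22 on the 4 arrays. The ranges overlapped, since the 2 lowest members, Chac1 and Sdf2l1, have no ERSE, and on replicate 2 the order of the medians was the reverse. The element goes along with role, since 7 of the 8 are chaperones or folding enzymes and Syvn1 is the exception. Among chaperones alone, the 4 with a window and no ERSE (Dnajb9, P4hb, Pdia4 and Sdf2l1) had a median of -0.12. Outside the members, 15 genes with an ERSE were measured and had a median of -0.026, 7 above 0 and 8 below. Those with a known place in the ER, named after their values were seen, were Derl3, a degradation factor, at -0.70, Ero1b, an oxidase for disulfide bonds, at -0.40, the calreticulin relative Calr4 at -0.08 and Alg12, a mannosyltransferase, at 0.045.

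The 4 members with the ATF4-C/EBP letters spanned the range of the whole set, from Chac1 at -0.47 and Asns at -0.34 to Herpud1 at 0.14 and Trib3 at 0.58. On the probes used, shared letters in these windows went with means of both signs. Both means above 0 have limits, since the other probe of Trib3 had -0.30 ± 0.32 and Herpud1 was at -0.072 without loess.

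Other genes of the same pathways were read from 8 lists of 137 genes, of which 131 were measured. At an unadjusted limma p under 0.05, 17 were higher (13%, beside 11.1% of all genes) and 10 lower (7.63%, beside 16.5%), and 0 passed after adjustment. Of 27 other ATF4 targets, 7 were higher at that level (25.9%) and 2 lower (7.41%), beside the same 11.1% and 16.5% of all genes, and the list's median was 0.027. Named by smallest p among those with 1 sign on all arrays, the higher ones were Nupr1, a stress-induced chromatin protein, at 0.51 ± 0.23, the seryl-tRNA synthetase gene Sars at 0.28 ± 0.084 and Eif4ebp1, an inhibitor of translation initiation, at 0.32 ± 0.115. Ddit4, an inhibitor of mTORC1, was at -0.37 ± 0.24.

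Of genes that bring chains into the ER and modify them, Stt3a, a catalytic subunit of oligosaccharyltransferase, had the smallest p, at 0.48 ± 0.13. Ssr3, a subunit of the translocon-associated complex, was at -0.38 ± 0.098, and Sec63, which couples BiP to the translocon, at -0.28 ± 0.079. Mcfd2, a cargo receptor subunit for coagulation factors, was at -0.22 ± 0.1. Of other folding and degradation factors, the J-domain protein gene Dnajc1 was at 0.33 ± 0.13 and the mannosidase-like gene Edem3 at -0.28 ± 0.17. Bax, which can bind IRE1 and acts in cell death, was at 0.29 ± 0.09. The limma adjusted p of each was 0.144, so none passed limma's test over the 4 array ratios. Adjustment gave this value to unadjusted limma p from 0.00033 (Stt3a) to 0.0095 (Edem3), so it does not rank these genes. Each lay on the same side of 0 on all 4 arrays, which was a condition for naming it. Calls for these 12 named genes depended on the fit. With the channels fitted separately and the array as replicate block, which called 2.84% of all genes and 0 members, 8 of the 12 passed: Stt3a, Nupr1, Bax, Sars and Eif4ebp1 higher and Ssr3, Sec63 and Ero1b lower, with limma adjusted p from 0.024 to 0.04. Without replicate 2, which called 28.6% of all genes, 9 of the 12 passed. Without loess, which called 31% of all genes, 8 of the 12 passed. The 12 had been chosen by smallest p in these same data. The 23 translocation genes had a median of -0.07, and the 20 measured genes of other degradation factors -0.021.

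Markers of the cells that rely most on ER folding were read beside these results. All 8 measured hepatocyte markers of 10 were above background on all arrays, and their summed linear intensity was 790000 to 980000 in treated and 1090000 to 1140000 in untreated livers, without overlap. Albumin, at the bright end where ratios bend below 0, led that sum at -0.70 ± 0.25. Apoa1, Tat, Cyp2e1 and Ass1 also had a log2 intensity above 17, where genes had a median ratio of -0.30 after loess. The part of this bend in the lower hepatocyte sum was not tested. Of the 8 means 2 were above 0, Ttr at 0.11 ± 0.13 and Hnf4a at 0.077 ± 0.19. For 9 markers of B and plasma cells, the sums of 16200 to 20300 and 15500 to 17800 overlapped. Within that list 6 of 9 means were above 0. Cd79b, a subunit of the B cell receptor, was above 0 on all arrays at 0.62 ± 0.52, and Mzb1 was at -0.01 ± 0.036. Jchain, with -0.43, 0.042, -0.63 and -0.66, and Derl3, with -0.95, 0.43, -0.77 and -1.49, were above 0 on replicate 2 and below 0 on the other arrays, as Sdf2l1 and Creld2 were. The sums of 10 markers of pancreatic acinar cells, 17700 to 24200 and 22500 to 24600, overlapped too, and 2 of them, Cpb1 (-0.38 ± 0.30) and Cel (-0.30 ± 0.25), had that arrangement. Of the 10 means 4 were above 0. The arrangement was also seen in 2 of 7 markers of T and NK cells (28.6%), Cd3e (-0.25 ± 0.22) and Cd8a (-0.19 ± 0.14). The other means of that list were above 0, 5 of 7. Among them Nkg7 at 0.60 ± 0.40 and Cd3d at 0.43 ± 0.26 were above 0 on all arrays. Csf1r, 1 of 9 Kupffer cell and macrophage markers, and Col1a1, 1 of 7 stellate markers, had it too. In these 2 lists 8 of 9 and 4 of 7 means were above 0. Over all 67 measured markers it was seen in 8 (11.9%), beside 6 of 29 members (20.7%) and 18.6% of all genes tested. Sums of 9 markers of Kupffer cells and macrophages were 39500 to 62600 and 40000 to 52700. The part of these cells in the members' ratios was not tested.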

How the data were processed

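The members, the role groups, the wider lists and the markers were chosen with earlier results of these data known. The authors deposited spot intensity values extracted with Agilent Feature Extraction 10.5.1.1 and a build named mm9 for the array, per the file headers. The authors also deposited a log2 table of these arrays, whose exact steps the sources used here do not give beyond limma, named with no version by the submitters' processing notes. Here, median signals were background-corrected with normexp (offset 50, limma 3.58.1 in R 4.3.3), normalized within each array by loess with control spots at weight 0, and averaged over repeat spots, with outlier spots left out. Of 41174 probes, 25097 (61.0%) matched 1 symbol by accession in a RefSeq table of GRCm38.p6; other probes kept the file's name. A gene was its probe of highest mean intensity, kept if either channel was well above background on 3 or more of the 4 arrays. The 4 log2 ratios of each gene were tested against 0 with limma (lmFit, eBayes) and adjusted by Benjamini-Hochberg over 31077 genes, with a threshold of 0.05. The same replicate number marks the 2 livers of an array, so the pairing lies in the ratio itself. Named members were those with an unadjusted limma p under 0.05, the highest and lowest mean of each role group, the 3 sensors, Hspa5, Xbp1, Atf4 and Ddit3; of the wider lists, up to 6 genes a direction with 1 sign on all arrays, by smallest p. Alternatives changed the background correction, normalization, filter, probe choice, variance model, channel use, source of ratios and replicates. The path was tested on simulated data. Depth on arrays is signal over background, and the number of arrays limits the precision.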

Additional observations from a re-analysis of the deposited data

Results flagged for a closer look

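Of 45 sets of 4 values examined, 2 held a value whose gap to the nearest other array, divided by the range, passed Dixon's critical value for 4 samples. Chance gives about 1 in 20. Sdf2l1 had 0.436 on replicate 2, against -0.79 to -0.70 on the other arrays, a gap of 0.923 of the range. Calr had 0.192 on replicate 1, against -0.043 to -0.013 on the others, a gap of 0.875 of the range. The array of replicate 2 also stood apart over all probes, as given above, and that of replicate 1 did not. What set either value apart was not tested.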

How the results depend on the processing

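Under 15 alternatives, 18 of 29 members kept the sign of their mean and 11 did not. Without loess, genes called went from 0 to 9632 and members called from 0 to 10, members at an unadjusted p under 0.05 became 1 higher and 14 lower, members with 1 sign on all arrays 1 above and 11 below, and the medians were -0.05 for the PERK-ATF4 arm and -0.183 for all members; signs turned for Hspa13 (-0.022), Manf (-0.113), Calr (-0.106), Herpud1 (-0.072), Atf6 (-0.062), Ern1 (-0.042), Xbp1 (-0.001), Eif2ak3 (-0.05) and Atf4 (-0.068). Fitting the channels separately, with the array as replicate block, called 884 genes and 0 members, and without the block it called 0 genes and 0 members; it turned no member. With Agilent's processed signals, 3 members were lower at an unadjusted p and 1 was below 0 on all arrays, and signs turned for Hspa13 (-0.03), Manf (-0.056), Sel1l (0.021) and Syvn1 (0.069). With the mean over probes, 1 member was higher at an unadjusted p, 2 were above and 5 below 0 on all arrays, and Calr (-0.248) and Sel1l (0.049) turned. A running median over intensity turned Manf (-0.031) and Calr (-0.016). Leaving out each replicate gave 0 to 8792 genes called, 0 to 12 members called and 1 to 7 members lower at an unadjusted p (1 without replicate 1, 2 without replicate 3 and 2 without replicate 4); members that turned in sign ranged from -0.1 (without replicate 2) to 0.056 for Manf, -0.133 to 0.043 (without replicate 2) for Sel1l, -0.03 (without replicate 1) to 0.048 for Calr, -0.064 to 0.012 (without replicate 1) for Syvn1 and -0.005 (without replicate 4) to 0.145 for Atf6. The count with 1 sign on all arrays was not made on 3 arrays. The all-gene median stayed within 0.05 of 0 throughout. The cause of these shifts was not tested. Limits: 4 arrays with 0 dye swaps on 1 slide, and member calls that depend on 1 array and on the loess step.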
